A study of Arabidopsis thaliana with 4 samples.

Results

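The libraries numbered replicate 2 were compared with those numbered replicate 1, with genotype kept as a block. They are 2 of the 4 libraries of the series in each set, 1 library of wild-type (WT) Col-0 and 1 library of the *ldl1 ldl2* double mutant. The mutant carries T-DNA insertions in *LDL1* and *LDL2*, which encode homologs of a human lysine-specific histone demethylase, and was made by crossing the single mutants *ldl1-1* and *ldl2-1* in the Col-0 background. All 4 libraries were made from mRNA of leaves of uninfected 3-week-old plants grown in a chamber with 12 h light and 12 h dark. The study counts the replicates as biological. How many plants were pooled, and at which hour the leaves were taken, is not given in the sources used here. Whatever differs between the sets in harvest time, growth or handling cannot be told apart.

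Plants run an internal clock in which groups of genes take turns over the day. In *Arabidopsis*, the MYB-like factors CCA1 and LHY are made around dawn and repress genes that are expressed later, the pseudo-response regulators follow one another through the day, and ELF3, ELF4 and LUX form an evening complex that acts after dusk. CCA1 and LHY bind the evening element, a short DNA sequence found near the start of many genes that peak toward evening. Starch turnover, nitrate assimilation, pigment synthesis, cold responses and cell expansion are all known to follow daily rhythms in leaves.

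Levels were deposited as FPKM, a read level scaled to transcript length and library size, for 32633 loci, and summed to between 1008263 and 1054500 per library. Each library listed between 11388 and 12113 loci at 0. The comparison used the 16905 loci whose FPKM averaged 1 or more across all 4 libraries, on the log2(FPKM + 1) scale, which understates the change of low genes. The 2 targeted genes were read first. *LDL1* had 4.37 and 5.0 FPKM in WT, against 4.44 and 4.09 in *ldl1 ldl2*, so its level does not check the genotype labels. *LDL2* had 1.04 and 0.944 FPKM in WT and less, 0.281 and 0.673, in *ldl1 ldl2*. The direction of the replicate difference does not rest on these labels, because each genotype was compared with itself.

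A large part of the leaf transcriptome differed between the sets, mostly in the same direction in both genotypes. By limma with a genotype block and Benjamini-Hochberg adjustment, 2238 genes (13.2% of those tested) were higher in replicate 2 and 1806 (10.7%) were lower at an adjusted p under 0.05. These shares are the background for the counts of list members given below. The test reads the mean difference and does not require agreement. Of the 4044 genes called, 39 had opposite signs in the 2 genotypes, and 3303 had the larger difference in WT. A value listed at 0 was among those of 83 genes called higher and 41 called lower. By size alone, 848 genes (5.02%) were at least 2-fold higher in replicate 2 in both genotypes and 734 (4.34%) were at least 2-fold lower in both. All 1582 of these genes also passed limma's test, which reads the same libraries and so is not separate support. Changes of at least 16-fold in both genotypes numbered 35 upward and 4 downward.

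The spread behind these tests is how far the 2 genotypes disagreed about the replicate difference, with 1 residual degree of freedom per gene, moderated across genes. The replicate difference had the same sign in both genotypes for 77.7% of the genes tested, and 17 genes moved 2-fold or more in opposite directions. It was wider in WT, where 3794 genes differed at least 2-fold, than in *ldl1 ldl2*, where 1993 did. The median gene tested was 0.14 higher in replicate 2 on the log2 scale, and dividing each library by its median ratio brought this to 0.00. The share of called genes that were higher was 55.3% as deposited, 42.7% after median-ratio scaling and 45.2% after quantile normalization, so which direction held more genes depended on the scaling. For a single gene, 2 libraries against 2 cannot give an exact two-sided permutation p below 0.333. Where genes are said below to separate the sets without overlap, this describes their levels only. The share of all genes tested that did so was not counted, and many of the genes named were picked for large differences. With 1 library left out only the replicate number could be fitted. The genes called then numbered 208 higher and 82 lower without WT replicate 1, 30 and 3 without WT replicate 2, 770 and 664 with *ldl1 ldl2* replicate 1 left out, and 170 and 108 with *ldl1 ldl2* replicate 2 left out. Counts with 1 library left out are given in this order in what follows. Without WT replicate 2, no member of the pathway and marker lists was called other than 5 evening clock genes and 3 evening outputs.

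**Figure D1:**
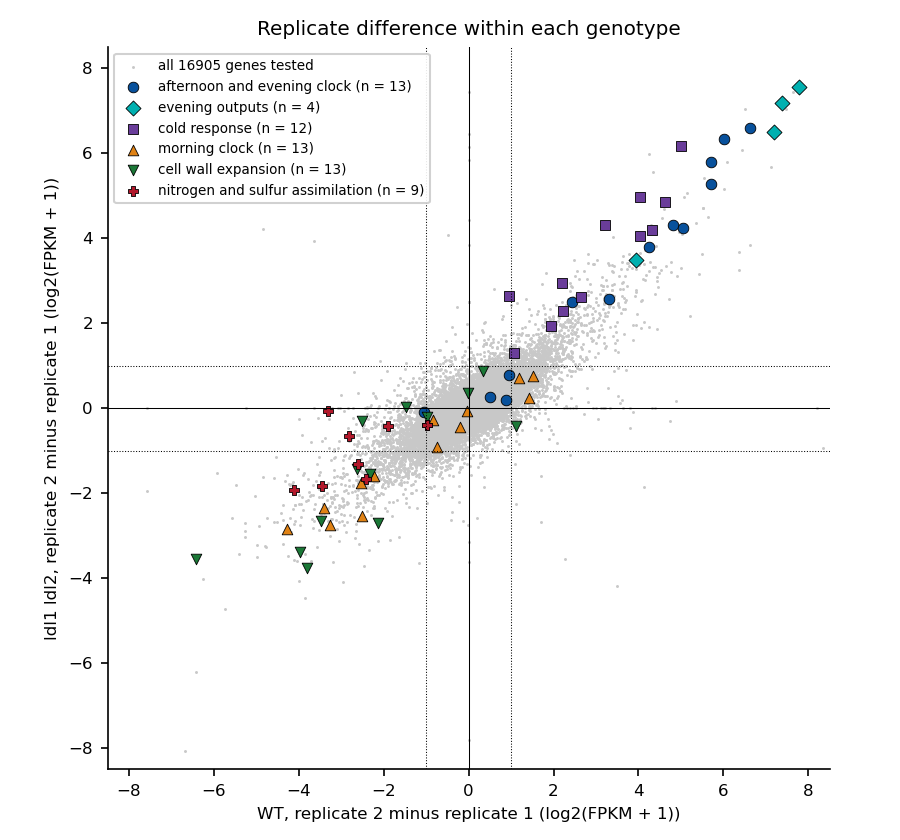
Replicate 2 minus replicate 1 within WT (x axis) and within *ldl1 ldl2* (y axis), in log2(FPKM + 1), for the genes tested (grey) and the members of 6 gene lists (coloured symbols, explained in the key). Dotted lines mark 2-fold. Evening clock genes, evening outputs and cold response genes lie to the upper right, and morning clock, cell wall and nitrogen and sulfur genes mostly to the lower left. 14 genes lie outside the axes.

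Clock genes of the afternoon and evening were higher in replicate 2 in both genotypes. Of 13 such genes tested, 10 were higher, none was lower and 3 did not pass, and the median log2 difference was 4.01 against 0.14 over all genes tested. *ELF4*, an evening complex gene at locus AT2G40080 (chromosome 2, 16734294 to 16734953), was at 0.328 FPKM in WT replicate 1 and 0.526 in *ldl1 ldl2* replicate 1, against 131 and 147 in the replicate 2 libraries. It was close to the floor of the measurement in both libraries of one set and well expressed in both of the other, a log2 difference of 6.61 ± 0.24 (SE, 2 libraries per set; adjusted p = 3.2e-09). *ELF4* reached the minimum average of 1 FPKM only through the replicate 2 libraries. So did *BOA*, *PRR5*, *PRR3*, *FKF1*, *COR27* and AT4G33980, described here or below, so their calls are not separate support for a rise. *LUX*, the DNA-binding member of the complex, went from 1.25 to 73.9 FPKM in WT and from 2.85 to 71.5 in *ldl1 ldl2*. *ELF3* went from 2.66 to 35.1 in WT and from 4.69 to 32.9 in *ldl1 ldl2*. All 3 complex genes therefore separated the sets without overlap, as did *BOA*, a close relative of *LUX*, which went from 0.156 to 5.26 in WT and from 0.115 to 5.25 in the mutant.

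Of the pseudo-response regulators, which are known to appear one after another through the day, the earliest was lower and the later ones were higher. *PRR9*, the earliest, was lower in replicate 2, at 13.0 against 7.30 FPKM in WT and 19.5 against 9.81 in *ldl1 ldl2* (log2 difference −0.84 ± 0.24, adjusted p = 0.0228). *PRR7* was slightly higher, at 40.5 against 79.3 in WT and 46.1 against 79.5 in *ldl1 ldl2* (0.86 ± 0.25, adjusted p = 0.0227). *PRR5* was listed at 0 in WT replicate 1 and stood at 0.174 in *ldl1 ldl2* replicate 1, against 51.0 and 63.9 in replicate 2. *PRR3* was at 0.0678 and 0.189 in replicate 1, against 54.4 and 45.0 in replicate 2. The last of the series, *TOC1*, was at 2.94 and 3.48 in replicate 1, against 109 and 88.0 in replicate 2 (4.56 ± 0.25). The log2 differences thus ran from below 0 for *PRR9* to above 4 for *PRR5*, *PRR3* and *TOC1*.

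*GI* and *FKF1*, which together act on flowering time by removing repressors of *CONSTANS*, were also higher. *GI* was at 1.69 FPKM in WT and 2.60 in *ldl1 ldl2* in replicate 1, and at 49.7 and 48.6 in replicate 2. *FKF1* was at 0.135 in WT and listed at 0 in *ldl1 ldl2* in replicate 1, and at 72.2 and 79.3 in replicate 2. The 2 relatives of *FKF1* that are known for a flat transcript level did not pass, with *ZTL* at 0.38 ± 0.24 (adjusted p = 0.273) and *LKP2* at 0.53 ± 0.26 (adjusted p = 0.154) on the log2 scale. *CHE*, a TCP factor, did not pass either, since it was lower in replicate 2 of WT (128 against 61.4 FPKM) and about level in *ldl1 ldl2* (121 against 114). With 1 library left out, 9, 5, 9 and 8 evening clock genes were called.

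Genes that act around dawn were lower in part. Of 13 morning clock genes tested, 7 were lower, 2 were higher and 4 did not pass, with a median log2 difference of −0.84. *LHY* was at 22.9 FPKM in WT and 8.92 in *ldl1 ldl2* in replicate 1, against 0.236 and 0.380 in replicate 2 (−3.56 ± 0.32, adjusted p = 6.77e-06). Its partner *CCA1* had a log2 difference of −2.88 ± 0.28. For both genes the replicate 1 level was higher in WT than in *ldl1 ldl2*, and the replicate 2 levels of the genotypes were near each other.

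*RVE8*, a related MYB-like activator, and its coactivators of the LNK family were lower too. *RVE8* was at 15.8 and 5.93 FPKM in replicate 1, against 2.60 and 1.28 in replicate 2. *LNK4* was at 148 in WT and 104 in *ldl1 ldl2* in replicate 1, and at 14.5 and 14.6 in replicate 2. *LNK2* and *LNK3* fell by 2.15 and 2.52 on the log2 scale, and *LNK1* at −0.56 ± 0.25 did not pass (adjusted p = 0.129). *RVE2* (1.13 ± 0.29) and the MYB-like locus AT5G52660 (0.95 ± 0.25) were the 2 members that were higher, and *RVE1*, *RVE4* and *RVE7* did not pass. With each library left out in turn, 3, 0, 6 and 2 morning genes were called lower.

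**Figure D2:**
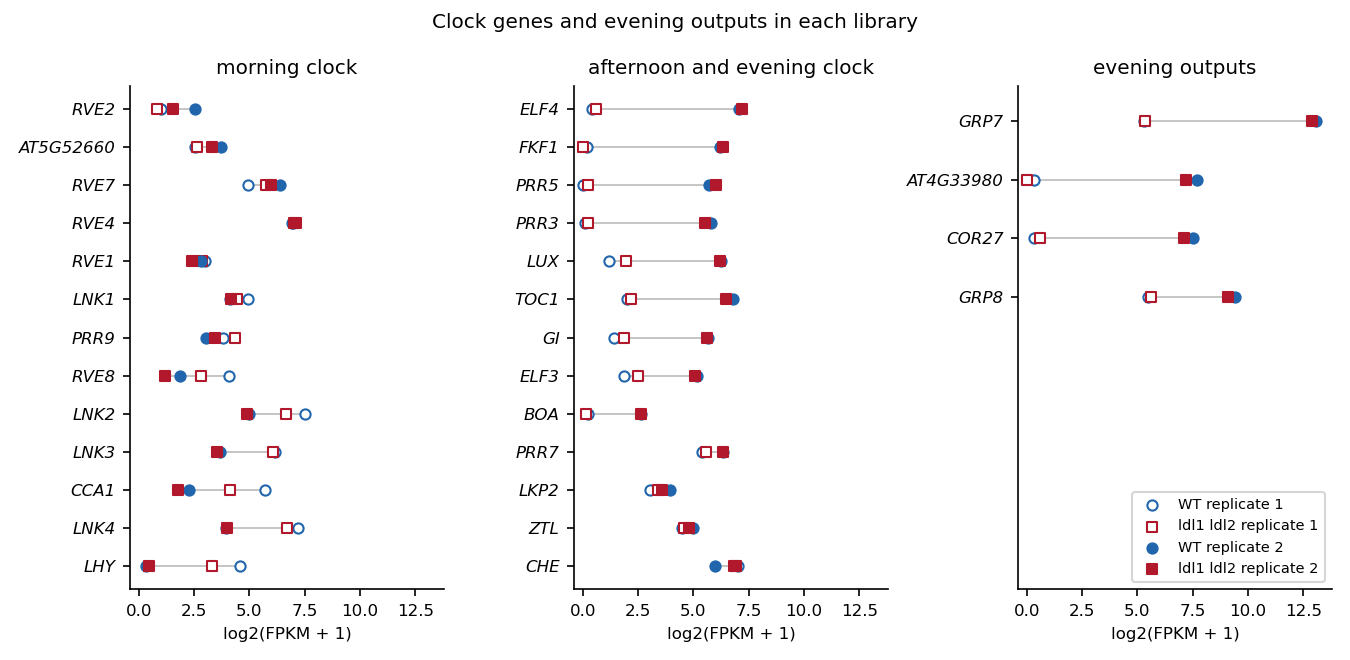
Level in log2(FPKM + 1) of each morning clock gene (left), afternoon and evening clock gene (middle) and evening output (right) in the 4 libraries, with WT as circles, *ldl1 ldl2* as squares, replicate 1 open and replicate 2 filled. The filled and open symbols of *ELF4*, *FKF1*, *PRR5*, *PRR3*, *LUX*, *TOC1*, *GI* and all 4 evening outputs lie far apart, and within a set the genotypes lie close together.

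The 4 evening outputs tested were all higher in replicate 2, with a median log2 difference of 7.06. *GRP7*, at locus AT2G21660 (chromosome 2, 9265084 to 9266557, minus strand), encodes an RNA-binding protein with a daily rhythm of its own. Its rise was the largest on the log2(FPKM + 1) scale. It was at 38.0 FPKM in WT replicate 1 and 39.5 in *ldl1 ldl2* replicate 1, against 8570 and 7659 in replicate 2, which is 225-fold in WT and 194-fold in *ldl1 ldl2*. By fold alone, genes near 0 in replicate 1 exceeded it, such as *ELF4*, at 398-fold and 279-fold. Its relative *GRP8* was at 43.9 and 48.4 in replicate 1, against 687 and 551 in replicate 2. *COR27*, a cold-regulated gene that represses clock genes, was at 0.231 and 0.508 in replicate 1, against 179.6 and 136 in replicate 2, and AT4G33980 was at 0.241 in WT and listed at 0 in *ldl1 ldl2*, against 204 and 144. Each replicate 2 library therefore lay over 10-fold above both replicate 1 libraries for all 4 outputs. When 1 library was left out, 4, 3, 4 and 4 were called.

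The evening element was searched in a window from 250 bases before to 50 bases after each annotated gene start, in the RefSeq annotation of TAIR10.1. Its 9 letters, AAAATATCT, were read on both strands, so that a match on the opposite strand appears as AGATATTTT. The stretches printed here, all upstream of the gene start, show the element in capitals in genes whose values carry the evening pattern. Those of *ISA3* and *PWD* belong to starch degradation genes described further on, and *AIF1*, which encodes a basic helix-loop-helix protein, was chosen after its values were seen.
GRP7, chr2:9266568-9266645, minus strand: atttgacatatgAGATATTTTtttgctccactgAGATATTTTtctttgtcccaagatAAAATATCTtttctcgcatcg
GRP8, chr4:18275217-18275240, minus strand: atattcttacaaAGATATTTTttg
COR27, chr5:17199911-17199961, minus strand: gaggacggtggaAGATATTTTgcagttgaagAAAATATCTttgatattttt
TOC1, chr5:24674800-24674832, plus strand: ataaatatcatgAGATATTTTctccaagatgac
LUX, chr3:17182977-17183009, plus strand: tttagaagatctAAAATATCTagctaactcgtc
BOA, chr5:24003833-24003865, plus strand: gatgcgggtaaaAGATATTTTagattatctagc
PRR5, chr5:8358713-8358745, minus strand: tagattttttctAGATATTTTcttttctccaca
FKF1, chr1:25508441-25508473, plus strand: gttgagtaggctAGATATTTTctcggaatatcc
AIF1, chr3:1726999-1727100, plus strand: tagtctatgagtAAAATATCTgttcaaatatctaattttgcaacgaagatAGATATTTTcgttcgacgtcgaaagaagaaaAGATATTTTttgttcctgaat
ISA3, chr4:5783858-5783890, plus strand: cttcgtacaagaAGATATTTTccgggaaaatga
PWD, chr5:9261434-9261466, plus strand: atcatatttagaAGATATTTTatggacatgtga

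The share of windows with an evening element went with the size of the rise. The element was in 3.18% of the 16770 windows read for genes tested, in 15.0% of those of genes at least 2-fold higher in both genotypes, in 27.1% of those at least 4-fold higher and in 41.2% of the 34 windows of genes at least 16-fold higher. Among genes at least 2-fold lower it was in 2.19%. The 25 genes with 2 or more elements had a median log2 difference of 1.16, and 16 of them were higher and 1 was lower. The 509 genes with 1 element had a median of 0.48 and the 16236 genes with none a median of 0.13. *AIF1*, with 3 elements, was at 0.752 FPKM in WT and 2.1 in *ldl1 ldl2* in replicate 1, and at 33.8 and 42.6 in replicate 2. *BBX8*, a B-box factor with 3 elements, went from 0.387 to 47.8 and from 0.478 to 48.0. Both went the way of *GRP7*. *ELF4*, *GI*, *PRR3*, *ELF3* and *PRR7*, with no match in their windows, were higher as well. Of the afternoon and evening clock genes, 5 of 13 windows held the element.

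The G-box (CACGTG) was in 9.11% of all windows, in 15.3% of those at least 2-fold higher and in 9.84% of those at least 2-fold lower, and among morning clock genes it was in 9 of 13 windows. The telobox (AAACCCTA) and the site II motif (TGGGCC or TGGGCT), both common near genes of the translation machinery, were rarer on both sides. The telobox was in 5.46% of all windows, 2.84% of those at least 2-fold higher and 1.91% of those at least 2-fold lower. Site II was in 27.0%, 19.2% and 14.2% of the same groups. The CCA1-binding site (AAAAATCT), which shares no full match with the evening element, was in 8.25% of all windows and 11.5% of those at least 2-fold higher. The morning element (CCACAC) was in 8.0%, 8.53% and 12.7% of all windows, those at least 2-fold higher and those at least 2-fold lower, the W-box (TTGACC or TTGACT) in 32.1%, 26.7% and 32.0%, and the I-box (GATAAG) in 15.5%, 20.5% and 14.9%. At 4-fold the morning element was about as common on both sides, in 12.2% of windows higher and 12.4% lower. In the 34 windows at least 16-fold higher it was in 23.5%. The G-box share also went up with the rise, to 19.2% at 4-fold and 29.4% at 16-fold. All motifs were read on both strands, and a match describes letters in a window and not a bound site.

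**Figure D3:**
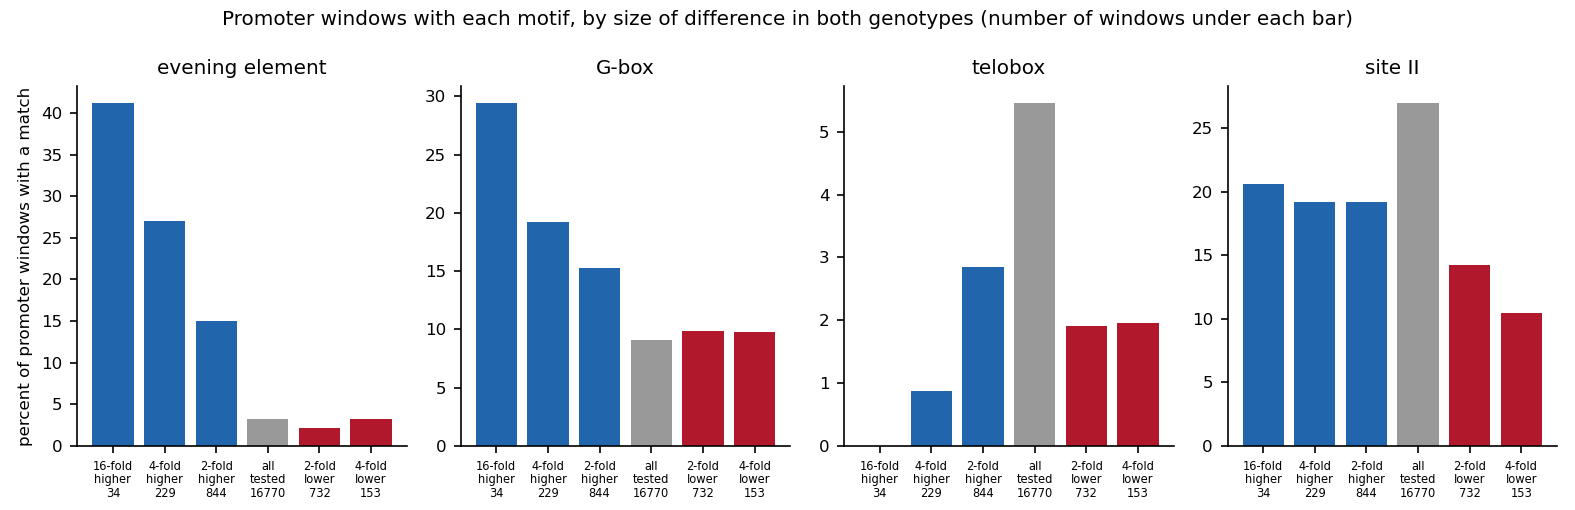
Percent of promoter windows with at least 1 match to the evening element, the G-box, the telobox or site II (y axis, from 0), by the fold difference reached in both genotypes (x axis, with the number of windows under each bar). The evening element bars run from 41.2% in the genes at least 16-fold higher to 3.18% in all genes tested, and the telobox bars are lower on both sides than in all genes tested.

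Starch genes, a list of both synthesis and degradation, were higher in part. Leaves store part of each day's photosynthate as starch and use it at night, and transcripts for the degrading enzymes are known to rise through the day. Of 27 starch genes tested, 13 were higher and 1 was lower, beside 13.2% higher and 10.7% lower over all genes tested. The list median was a log2 difference of 0.58. The debranching enzyme gene *ISA3* was at 4.84 FPKM in WT and 7.97 in *ldl1 ldl2* in replicate 1, and at 111 and 96.2 in replicate 2 (3.85 ± 0.27, adjusted p = 8.56e-07). *GWD1* and *PWD* encode the dikinases that phosphorylate the granule. *GWD1* went from 26.7 to 258 in WT and from 29.5 to 194 in *ldl1 ldl2*, and *PWD* from 8.14 to 149.7 and from 8.37 to 117. *PHS2*, a glucan phosphorylase, went from 14.3 to 165 and from 13.7 to 149, and the disproportionating enzyme *DPE1* from 6.52 to 73.3 and from 10.49 to 58.4. In each of these genes the lower replicate 2 library lay above both replicate 1 libraries.

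Calls were found among genes of both roles. The degradation genes *BAM3* (2.64), *SEX4* (1.69) and *AMY3* (1.6), named after their values were seen, were higher on the log2 scale. The branching enzyme gene *SBE2.1* (2.98 ± 0.25) and the starch synthase gene *SS4* (1.11 ± 0.24), which act in synthesis, were also higher. The degradation genes *BAM1* (−0.25) and *LSF1* (0.08) did not pass. *SS4*, *BAM1* and *LSF1* were named after their values were seen. *GBSS1*, which makes amylose and is known as a morning gene, was the 1 member that was lower, at 81.4 FPKM in WT and 29.0 in *ldl1 ldl2* in replicate 1, against 8.38 and 4.48 in replicate 2. In the fits with 1 library left out, 7, 0, 10 and 5 members were called higher. An evening element was in 4 of the 27 windows and a G-box in 10.

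Genes known to respond to low sugar or darkness were higher in part. Of 12 tested, 6 were higher and 1 was lower, beside 13.2% higher and 10.7% lower over all genes tested. The list median was 0.87. *DRM1*, a dormancy-associated gene, went from 27.8 to 2396 FPKM in WT and from 153 to 1463 in *ldl1 ldl2*. *SEN1*, a dark-inducible gene, went from 36 to 1371 and from 368 to 1654, and *ASN1*, a dark-inducible asparagine synthetase, from 36.2 to 488 and from 269 to 504. For these 3 genes the replicate 1 level was over 5-fold lower in WT than in *ldl1 ldl2*, and the WT difference was the larger. *BT2*, which lacked that gap, went from 24.3 to 202 and from 28.8 to 179. *DIN10*, also known as dark-inducible, was lower, at 492 and 728 in replicate 1, against 235 and 281 in replicate 2 (−1.22 ± 0.26). Of the senescence genes, 4 of 9 were higher, with the chlorophyll b reductase gene *NYC1* at 2.34 ± 0.25, and 1 was called higher after median-ratio scaling.

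**Figure D4:**
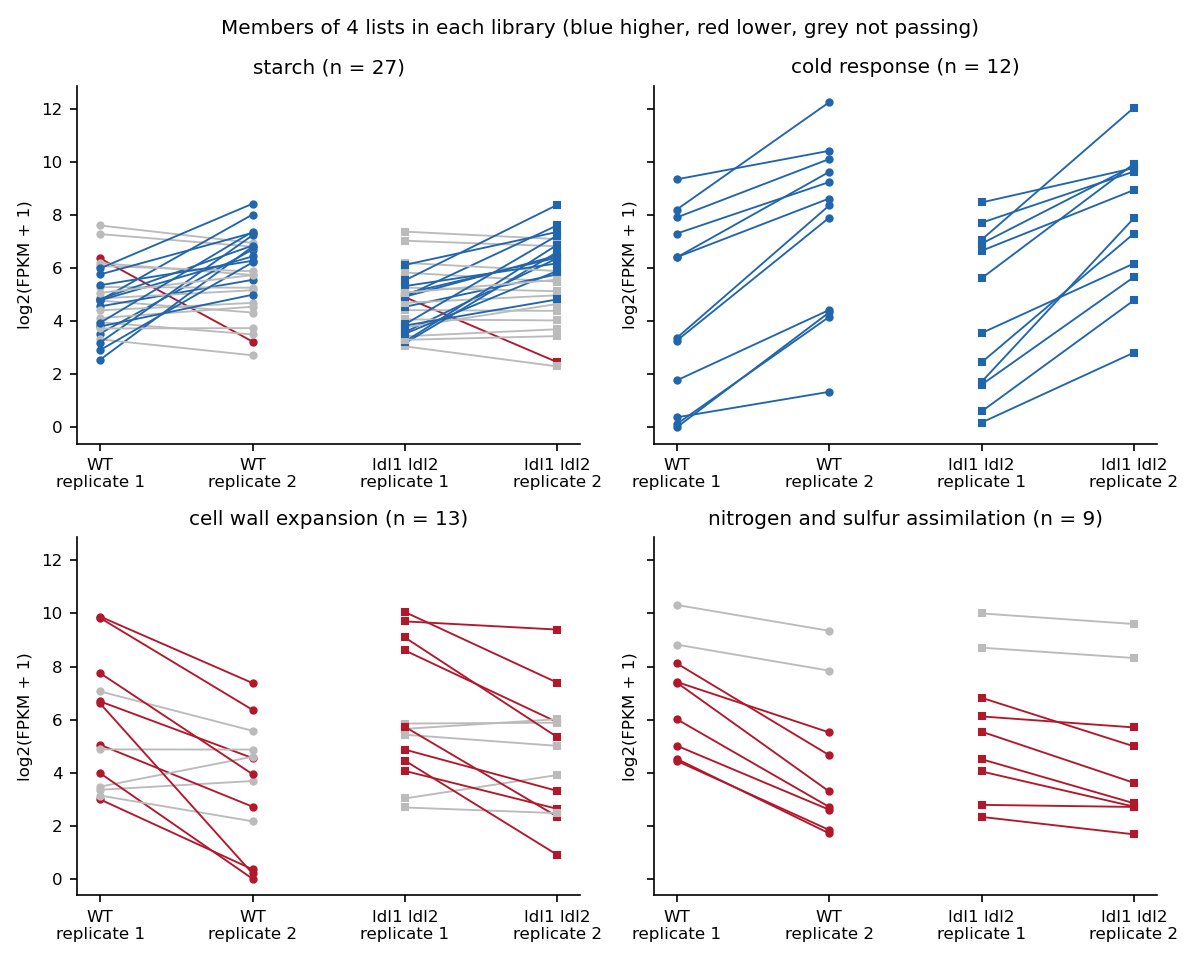
Level in log2(FPKM + 1) of each tested member of 4 lists in the 4 libraries, with a line joining the replicates of a genotype. Blue members were higher, red members lower, and grey members did not pass. All 12 cold response genes rise from replicate 1 to replicate 2, and no cell wall or nitrogen and sulfur gene is drawn in blue.

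All 12 cold response genes tested were higher in replicate 2, with a median log2 difference of 3.20. The CBF factors switch on cold-regulated genes, and their transcripts are gated by the clock at normal temperature. *CBF1* was at 0.0888 FPKM in WT and 2.04 in *ldl1 ldl2* in replicate 1, and at 16.9 and 49.6 in replicate 2, and *CBF3* was listed at 0 in WT and stood at 0.512 in *ldl1 ldl2*, against 19.1 and 26.6. Both were higher in *ldl1 ldl2* than in WT within each set. Genes known as targets of these factors were higher too. *RD29A* went from 9.33 to 328 in WT and from 2.27 to 235 in *ldl1 ldl2* (5.58 ± 0.29, adjusted p = 7.06e-08), *KIN1* from 8.62 to 237 and from 4.45 to 157, *KIN2* from 295 to 4872 and from 133 to 4227, and *COR15B* from 83.7 to 788 and from 48.0 to 973. *KIN1* and *KIN2* are near-identical neighbours whose reads can be split unevenly. When each library was left out, 7, 0, 9 and 2 of the 12 were called. The core of the dehydration-responsive element (ACCGAC or GCCGAC), which CBF factors bind, was in 4 of the 12 windows and in 10.13% of all windows. It was in 13.2% of windows at least 2-fold higher and in 10.9% of those at least 2-fold lower. At 4-fold the shares were 15.3% of windows higher and 12.4% of windows lower. Of the 34 windows at least 16-fold higher, 8 (23.5%) held it.

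Abscisic acid (ABA) and drought genes were called in both directions. Of 15 tested, 8 were higher, 2 were lower and 5 did not pass, with a median of 1.37. The 2 that were lower were the ABA receptor genes *PYL4*, at 43.5 FPKM in WT and 80.1 in *ldl1 ldl2* in replicate 1, against 2.07 and 2.63 in replicate 2, and *PYL5*, at 16.9 and 34.7 against 1.3 and 1.07. *NCED3*, which encodes the limiting enzyme of ABA synthesis under drought, was higher, at 3.05 and 6.45 against 22.8 and 29.5. *HAI2*, a phosphatase that acts in ABA signaling, went from 1.16 to 47.0 in WT and from 2.04 to 26.8 in *ldl1 ldl2*. The ABA-responsive genes *RAB18* (4.01 ± 0.35) and *RD29B* (4.14 ± 0.34) were higher in both genotypes, with the larger difference in WT. The 2 receptor genes were lower in both genotypes. *GolS2*, a galactinol synthase of the drought response named after its values were seen, went from 5.88 to 89.6 and from 4.21 to 54.6.

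Heat shock genes were lower in part. Of 11 tested, 5 were lower and 1 was higher, beside 10.7% lower and 13.2% higher over all genes tested. The list median was −0.75. *HSC70-1*, an abundant cytosolic chaperone, was at 692 and 680 FPKM in replicate 1, against 319 and 271 in replicate 2, and the heat shock factor gene *HSFA2* was at 3.19 and 2.24 against 0.158 and 0.461 (−1.50 ± 0.29). *DREB2A*, a dehydration and heat factor, was the 1 member that was higher, at 1.26 and 3.97 against 29.5 and 52.1.

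Genes of nitrogen and sulfur assimilation were lower in replicate 2. Of 9 tested, 7 were lower and none was higher, with a median of −1.73. The nitrate reductase gene *NIA2* was at 277 FPKM in WT and 112 in *ldl1 ldl2* in replicate 1, and at 24.3 and 30.8 in replicate 2 (−2.64 ± 0.33, adjusted p = 0.000107). *NRT1.1*, a nitrate transporter and sensor, went from 31.3 to 5.08 and from 21.7 to 6.19, and *NIA1* from 20.7 to 2.58 and from 15.5 to 5.59. *APR2*, a sulfate assimilation enzyme, went from 167 to 8.78 and from 45.7 to 11.3. *APR1* differed mainly in WT, at 63.6 against 5.53 in WT and 5.90 against 5.53 in *ldl1 ldl2*, although it passed the test (−1.69 ± 0.51, adjusted p = 0.0299). The list median was −2.60 within WT and −0.66 within *ldl1 ldl2*. With 1 library left out, 0, 0, 6 and 0 members were called lower.

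Phenylpropanoid and flavonoid genes were lower in part. Of 12 tested, 6 were lower and none was higher, and the other 7 of the list of 19 were below the minimum of 1 FPKM. *CHS*, the first committed enzyme, was at 96.7 and 67.4 FPKM in replicate 1, against 19.8 and 12.5 in replicate 2, and *F3H* was at 18.5 and 9.47 against 5.23 and 2.39. *CHI*, which encodes the enzyme between these steps and was named after its values were seen, did not pass (0.42 ± 0.24). Of the genes named, the late genes of anthocyanin synthesis differed most. *DFR* was at 34.3 and 45.9 against 1.45 and 3.3 (−3.65 ± 0.24), and *LDOX* at 14.4 and 10.6 against 0.247 and 0.830. For each of these 4 genes both replicate 2 libraries lay below both replicate 1 libraries. Of the aliphatic glucosinolate genes, 4 of 14 were lower and 1 was higher, led by the chain-elongation gene *MAM3* (−2.92 ± 0.26). The shares over all genes tested were 10.7% lower and 13.2% higher.

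Light signaling genes were lower in part, and chlorophyll synthesis and sigma factor genes were called in both directions. Over all genes tested, 13.2% were higher and 10.7% lower. Of 16 light signaling genes tested, 7 were lower and 2 higher. *COL2*, a *CONSTANS*-like gene that peaks around dawn, was at 65.5 FPKM in WT and 29.5 in *ldl1 ldl2* in replicate 1, against 2.89 and 3.82 in replicate 2. *HYH*, a relative of the photomorphogenesis factor HY5, was at 5.71 and 1.85 against 0.492 and 0.360, and the photoreceptor gene *CRY2* was higher, at 57.1 and 72.1 against 145 and 135. Of 13 chlorophyll synthesis genes tested, 2 were higher, 3 were lower and 8 did not pass. The 2 that were higher were *PORA* and *PORB*, which encode light-dependent reductases, with *PORB* at 314 and 419 against 1010.4 and 1131. The third reductase gene, *PORC*, chosen with its values known, had 211 and 162 against 119 and 134 and did not pass (−0.55 ± 0.26). *GUN4*, *CAO* and *CHLH* fell by 1.48, 0.96 and 0.89 on the log2 scale. Of 6 chloroplast sigma factor genes, *SIG5*, known as light-regulated, was lower (−1.66 ± 0.31), *SIG4* was higher (1.05 ± 0.25) and the other 4 did not pass.

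Of 20 antenna genes, 7 were lower and none was higher, beside 10.7% lower and 13.2% higher over all genes tested. *LHCB2.4* was at 3389.7 FPKM in WT and 3195 in *ldl1 ldl2* in replicate 1, against 581 and 1138 in replicate 2, and the early light-inducible gene *ELIP1* was at 17.1 and 5.20 against 0.190 and 0.461. The most abundant member, *LHCB1.3*, chosen with its values known, stood at 18799.7 and 22711 against 28445 and 27034 and did not pass (0.42 ± 0.28). The LHCB1 and LHCB2 genes are near-identical copies, so the split of reads among them is uncertain. In all, 13 antenna genes did not pass.

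All 6 mesophyll markers, which include 4 Rubisco small subunit genes, were lower in replicate 2, with a median log2 difference of −1.51. With each library left out in turn, 0, 0, 5 and 0 were called. Their summed level was 55201 FPKM in WT and 42032 in *ldl1 ldl2* in replicate 1, and 16090.1 and 20897 in replicate 2. *RBCS2B* carried the largest difference, at 9527 and 8031 against 1050.4 and 1870.3, and *RBCS1A* the smallest, at 19500.4 and 12665 against 8135 and 9247 (−0.86 ± 0.29, adjusted p = 0.0488). In bulk leaf RNA, fewer cells of a type and less RNA per cell cannot be told apart. None of 5 epidermis and guard cell markers passed limma's test, with 1 at an unadjusted p under 0.05, and their summed level was between 99.2 and 169.6 FPKM. Of 5 vascular markers 1, the phloem factor gene *APL*, was lower (−0.78 ± 0.24), and the summed level was between 153 and 205. Over all genes tested, 10.7% were lower and 13.2% higher. Root markers summed to at most 4.45 FPKM and seed markers to at most 0.130 in any library. Their part in the results was not tested.

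Genes for cell wall loosening were lower in part in replicate 2. Growing cells are known to loosen their walls with expansins and with xyloglucan endotransglucosylases of the XTH family. Of 13 such genes tested, 8 were lower, none was higher and 5 did not pass, with a median log2 difference of −1.94. Among the expansin genes, *EXPA1* and *EXPA5* were lower. *EXPA4* (0.61), *EXPA8* (0.35) and *EXPA11* (0.18) had differences above 0 on the log2 scale and did not pass. *XTH24* was at 214 FPKM in WT and 546 in *ldl1 ldl2* in replicate 1, and at 14.4 and 39.5 in replicate 2 (−3.78 ± 0.25, adjusted p = 5.23e-07). *XTH4* went from 909 to 81.5 in WT and from 1061 to 167 in *ldl1 ldl2*, and *EXPA1* from 102 to 22.4 and from 389 to 58.8. *XTH33* went from 96.5 to 0.149 and from 20.9 to 0.868, with the WT difference the larger. In these 4 genes both replicate 2 libraries were below both replicate 1 libraries. When 1 library was left out, 1, 0, 4 and 1 members were called lower.

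Several of the 10 largest falls were of genes of the cell wall and cell surface. *XTR6* (67.8 and 78.8 against 0.294 and 2.0 FPKM) and *XTH7* (354 and 212 against 3.66 and 12.0) are further XTH genes. *FLA13* (320.4 and 135 against 6.55 and 11.6) and *FLA9* (253 and 220.2 against 6.99 and 18.6) encode fasciclin-like arabinogalactan proteins of the cell surface. *RTFL14*, of a family of small peptides that limit cell proliferation, was at 84.5 and 73.8 in replicate 1 and listed at 0 in both replicate 2 libraries. *MEE3*, a MYB-like gene, went from 55.7 to 0.478 and from 47.2 to 4.92. The gene model AT4G30097 spans 144 bases opposite to a neighbour, AT4G30100, and was listed at 0 in both replicate 2 libraries, so its values are uncertain. The RNA locus AT1G31258 was at 189.9 in WT and 526 in *ldl1 ldl2* in replicate 1, and listed at 0 in WT and at 135 in *ldl1 ldl2* in replicate 2.

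The 10 largest rises held 4 members of the clock and evening output lists, *GRP7*, *COR27*, *ELF4* and AT4G33980. They also held AT1G07050, a CCT motif gene, which was at 0.211 FPKM in WT and listed at 0 in *ldl1 ldl2* in replicate 1 and stood at 109.7 and 129.9 in replicate 2. The DnaJ-domain genes AT5G23240 (0.471 and 0.855 against 262 and 243 FPKM) and AT1G56300 (0.729 and 3.58 against 241 and 235) each overlap a gene on the other strand, and whether the counting used strand is not given in the sources used here. AT2G38465 was listed at 0 in WT and stood at 0.259 in *ldl1 ldl2* in replicate 1, against 86.1 and 83.9. AT5G66053, a 147-base gene model opposite to another gene, was at 84.5 in WT and listed at 0 in *ldl1 ldl2* in replicate 1, against 909.9 and 571. The chloroplast gene ATCG00700, which encodes a photosystem II protein and lies on the strand opposite to its neighbours, was listed at 0 in both replicate 1 libraries and stood at 198 and 173 in replicate 2. No fold is given for it, since a listed 0 can be a failed estimate.

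Growth regulators did not show one direction, beside 13.2% higher and 10.7% lower over all genes tested. Of 11 auxin response genes, 2 were higher and 2 lower. *IAA17*, a repressor of auxin response, was at 83.8 and 49.6 FPKM in replicate 1, against 6.86 and 9.49 in replicate 2, and *IAA1* was at 16.6 and 17.3 against 45.7 and 33.0. Of 10 PIF factors and targets, 3 were higher, among them *PIF3* (1.28 ± 0.24) and *PIF4* (0.85 ± 0.25), and 2 were lower, *PIF7* and *XTH15*. *IAA29*, a target of PIF factors, was at 3.94 and 8.26 against 23.1 and 17.3. Of 7 brassinosteroid and gibberellin genes, the 3 that were higher were the gibberellin receptor genes *GID1A* and *GID1B* and the brassinosteroid enzyme gene *CPD*. None of 11 cell division genes passed limma's test, with 2 at an unadjusted p under 0.05, and the largest difference, of *PCNA1*, was −0.76 ± 0.28 (adjusted p = 0.0663).

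Flowering genes were called in both directions, beside 13.2% higher and 10.7% lower over all genes tested. Of 5 photoperiod genes tested, 1 was higher and 2 were lower. *SOC1*, a floral integrator, was at 41.7 FPKM in WT and 35.3 in *ldl1 ldl2* in replicate 1, against 195 and 139 in replicate 2 (2.07 ± 0.25, adjusted p = 6.74e-05). The 2 that were lower were *CDF2*, a repressor of *CONSTANS*, at 8.03 and 11.1 against 5.57 and 3.77 (−0.90 ± 0.27), and AT1G69570, at 3.09 and 2.52 against 0.682 and 0.704 (−1.16 ± 0.27). *AGL8*, also called *FUL*, and *SPL9*, both named after their values were seen, act with it in the floral transition. *AGL8* was at 1.09 and 0.554 against 10.9 and 8.32, and *SPL9* at 1.1 and 0.608 against 4.31 and 2.07. The floral marker *SEP3* was listed at 0 in WT and stood at 0.0969 in *ldl1 ldl2* in replicate 1, and was at 4.46 and 3.13 in replicate 2. *AP1* was at 3.46 in WT replicate 2 and listed at 0 in the other 3 libraries, and *PI* was at 3.54 in WT replicate 2 and at most 1.13 elsewhere. The 5 floral markers summed to 0.602 and 2.78 FPKM in replicate 1 and to 14.1 and 4.89 in replicate 2, and their part in the leaf results was not tested.

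Touch and jasmonate genes were called in both directions, and salicylic acid defense genes only lower. Of all genes tested, 23.9% were called in either direction. Of 10 salicylic acid defense genes tested, 3 were lower and none was higher, with no difference over 1 on the log2 scale. Of 12 touch and wounding genes, 2 were higher and 2 were lower. *TCH3*, a touch-induced calmodulin-like gene, was at 352 and 785 FPKM in replicate 1, against 40.0 and 258 in replicate 2. *TCH2* was lower in WT, at 216 against 49.0, and level in *ldl1 ldl2*, at 288 against 298, and did not pass. *ERF6* went from 3.67 to 7.99 in WT and from 26 to 64.3 in *ldl1 ldl2*, so that it was higher in replicate 2 within each genotype and higher in *ldl1 ldl2* within each set, and without WT replicate 1 or *ldl1 ldl2* replicate 2 its direction turned. Of 13 jasmonate genes, 3 were higher and 4 lower, with the factor *MYC2* at 1.55 ± 0.24 and the repressor gene *JAZ7* at −1.38 ± 0.27. After median-ratio scaling 1 was higher and 3 lower, and without the genotype block none was called. *MYC2* was also higher in *ldl1 ldl2* within each set, at 5.92 FPKM in WT and 44.3 in *ldl1 ldl2* in replicate 1. In replicate 2 it was at 19.2 and 133. Of 11 iron genes, 2 were higher and 2 lower.

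Of 10 genes used as references, 2 were lower and none was higher, beside 10.7% lower and 13.2% higher over all genes tested. The 2 were *GAPC1* (−0.84 ± 0.27) and *UBC9* (−0.75 ± 0.25), and the list median was −0.30. Neither was called lower after median-ratio scaling, after quantile normalization or without the genotype block. Among ribosomal protein genes, found by product name, 13 of 286 tested were higher and 20 were lower, which is below the background in each direction, with a median of −0.20. Of 27 proteasome genes, 1 was higher. Histone genes, also found by product name, split into 9 higher and 7 lower of 40 tested.

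**Figure D5:**
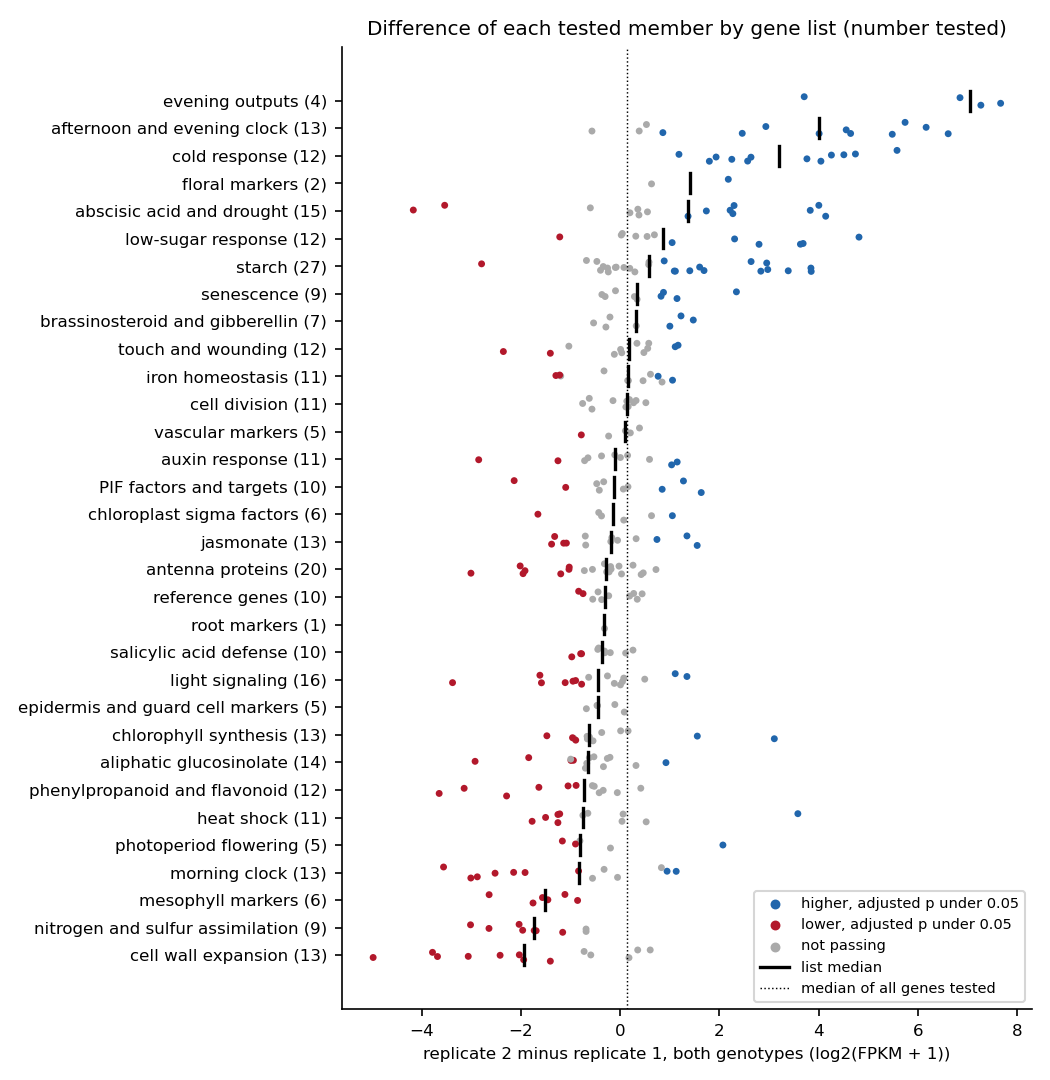
Log2 difference between replicate 2 and replicate 1 over both genotypes (x axis, log2(FPKM + 1)) of each tested member of the gene lists (y axis, number tested in brackets), ordered by list median (black bar). Blue points were higher and red points lower at an adjusted p under 0.05, and the dotted line is the median of all genes tested, 0.14. The medians run from −1.94 for cell wall expansion to 7.06 for the evening outputs.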

How the data were processed

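Poly(A) RNA from leaves was sequenced with a stranded kit in 2 WT and 2 *ldl1 ldl2* libraries. Per the labels and the study's methods, the authors trimmed reads with Trimmomatic 0.33, aligned them with TopHat2 to TAIR10 and deposited FPKM values from Cufflinks. No counts were used, so the depth behind each value is unknown and no counting interval is given. A listed 0 can be a failed estimate.

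Replicate 2 was compared with replicate 1 by limma 3.58.1 in R 4.3.3, with variance trend and genotype as a block, on log2(FPKM + 1) of loci whose FPKM averaged 1 or more, with Benjamini-Hochberg adjustment over 16905 loci. Each set has 1 library per genotype. The p-values therefore set the mean replicate difference against how far the genotypes disagree about it, moderated across genes. The fit was tested on simulated data. The gene lists and the comparison were chosen with earlier results of these data known. Genes named were the 10 largest rises and falls among those called and at least 2-fold in both genotypes, all members of the clock and evening output lists, up to 6 members of each other list by absolute log2 difference, and the 5 largest opposite differences. *AP1* and others so marked were chosen after their values were seen, as were the families in the closing section. Promoter windows were built from the RefSeq TAIR10.1 genome and annotation, which held 16771 of the 16905 loci. Alternatives were other pseudocounts, filters, scalings and fold limits, no variance trend, no genotype block, each library left out and, added after seeing the data, loci listed at 0 left out.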

Additional observations from a re-analysis of the deposited data

Results flagged for a closer look

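The replicate difference ran in opposite directions, by at least 2-fold each, in 17 genes, and the difference between the genotypes was not tested. The 5 largest alternated with values listed at 0, given here as the WT difference minus the *ldl1 ldl2* difference in log2(FPKM + 1). For ATMG01380 it was −20.4, with 1865 FPKM in WT replicate 1, 722 in *ldl1 ldl2* replicate 2 and 0 listed in the other libraries. For AT4G37095 it was −18.7, for AT2G11891 −9.06 and for AT5G57080 −7.56, each listed at 0 in WT replicate 2 and *ldl1 ldl2* replicate 1. For ATCG00640, a chloroplast ribosomal protein gene, it was 7.68, with 0 listed in WT replicate 1 and *ldl1 ldl2* replicate 2. None of the 5 passed limma's test for a shared replicate difference.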

How the results depend on the processing

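The genes called higher and lower numbered 938 and 747 with no filter on low values and 1112 and 869 without the genotype block. The genes called higher numbered 1314 with median-ratio scaling and 1342 with quantile normalization. With 1 library left out they ranged from 30 to 770 higher and from 3 to 664 lower. With 1.5-fold as the limit in both genotypes 1977 genes were higher and 1581 lower, and with 4-fold 230 and 153. No gene called as deposited turned direction under the alternatives that kept all 4 libraries. Of these alternatives, only the pseudocounts and scalings could change a log2 difference. The filters, the variance trend and the genotype block leave it as it is, since each set has 1 library per genotype. Of the 127 called genes named in the text, 126 kept their direction under each of the 14 alternatives in which they were fitted. Of these 127, 119 were fitted with the minimum of 5 FPKM, 126 with nuclear genes rescaled and 115 with loci listed at 0 left out. Without WT replicate 2, 16 were still called. The exception was *ERF6*, which ranged from −0.32 to 2.54 with 1 library left out. Of genes not called, the range was −0.12 to 0.013 for *RVE4*, −2.32 to 0.26 for *TCH2*, −0.32 to 1.59 for *PI* and −0.14 to 0.29 for *LSF1*, which was also at −0.069 with median-ratio scaling and −0.072 with quantile normalization. Of the genes with opposite directions, it was −6.12 to 4.75 for ATMG01380, −4.54 to 5.13 for AT4G37095, −2.74 to 2.11 for AT2G11891, −2.44 to 1.75 for ATCG00640 and −1.82 to 2.11 for AT5G57080. The fits with 1 library left out held no genotype block, so a difference between the genotypes enters their replicate difference. Within each genotype *ERF6* was higher in replicate 2. The cause of these changes was not tested. No paired analysis was possible because the replicate number is the factor compared and cannot also serve as the block. The libraries were paired by genotype in its place. With no counts used here, the depth limit of low genes is unknown.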

Other observations

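Families of the cell wall and cell surface, chosen after values of members were seen, were counted whole. Beside them, 10.7% of all genes tested were lower and 13.2% higher. Of 19 xyloglucan endotransglucosylase genes tested, of 31 in the annotation, 15 were lower and 1 was higher in replicate 2. Of 14 fasciclin-like arabinogalactan protein genes tested, 12 were lower and none was higher. Of 17 expansin genes, 9 were lower and 2 were higher, and of 7 cellulose synthase genes 4 were lower and none was higher. *AGP18*, an arabinogalactan protein gene of a family with 12 of 21 lower, was at 62.9 and 62.0 FPKM in replicate 1, against 3.90 and 4.18 in replicate 2. The growth-related SAUR family had 25 lower and 5 higher of 46 tested.

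B-box genes, many of which are known to be rhythmic, split in both directions, with 8 higher and 7 lower of 23 tested. Their median log2 difference was 0.06. The shares over all genes tested were 13.2% higher and 10.7% lower. *COL9* was at 0.476 and 0.419 FPKM in replicate 1, against 67.5 and 59.1 in replicate 2. *MT2A*, an abundant metallothionein gene with 2 evening elements, was at 849.8 and 535 in replicate 1 and at 6967 and 6020.2 in replicate 2. *JMJD5*, a histone demethylase gene with a role in the clock and also with 2 elements, was at 1.16 and 0.770 against 19.0 and 10.05.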
